A study of Mus musculus with 9 samples.

Results

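The expression of 10 Wnt/beta-catenin target and feedback genes was examined in mouse epiblast-like cells in 3 states. The genes were Axin2, Nkd1, Rnf43, Znrf3, Notum, Dkk1, Sp5, Tcf7, Lef1 and Tcf7l1. They were taken by symbol from the 23453 gene symbols of the bulk RNA-seq count table, and each of the 10 was found there. Over 48 h, a medium of FGF2, Activin A and the serum replacement KSR at 1% had turned naive embryonic stem cells (ESCs) into EpiLCs, which resemble the early post-implantation epiblast. EpiLCs were then harvested or cultured for a further 24 h. Those cultured on without Activin A were named aEpiLC, for anterior, and those given Activin A at 20 ng/ml with CHIR99021 at 3 µM were named pEpiLC, for posterior. The methods give 1% KSR for both later media, while the study elsewhere calls the aEpiLC medium basal. Each state had 3 replicate libraries, 9 in all, and no genotype beyond wild-type was given. The pEpiLC and aEpiLC states differ in 2 agents at once, and both differ from EpiLC in time and in the loss of FGF2 as well, so effects of CHIR99021, of Activin A, of FGF2 and of time cannot be told apart.

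In the Wnt pathway, beta-catenin is held low by a destruction complex of AXIN, APC and the kinases GSK3 and CK1, which marks it for degradation. A Wnt ligand bound to a Frizzled receptor and its co-receptor LRP5 or LRP6 halts that complex, and so does CHIR99021, which inhibits GSK3 inside the cell. Beta-catenin that accumulates enters the nucleus and binds TCF/LEF factors on DNA, where it turns genes on. Many of those genes encode inhibitors of the pathway, so that the response is self-limiting. In the mouse embryo the pathway is active on the posterior side of the epiblast, where the primitive streak forms.

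The promoters of Sp5 and Axin2, the pair with the largest called rise in pEpiLC, and a stretch of that of Dkk1, the gene that differed most among the pEpiLC libraries, are shown first, with the sequence that TCF/LEF factors are known to recognise marked in capitals. The 250 bases before the start site were searched on both strands for CTTTG followed by AT, AA, TT or TA in RefSeq sequences of GRCm38.p6, which held 13 start sites for 8 of the 10 genes. Sp5 (window chr2:70474673-70474922, plus strand) had CTTTGAT from 104 to 98 bases before its start and CTTTGTT, on the opposite strand, from 222 to 216 bases before it, which reads AACAAAG on the strand printed. Axin2 (window chr11:108920099-108920348, plus strand) held none of the 4 in this window.
Sp5: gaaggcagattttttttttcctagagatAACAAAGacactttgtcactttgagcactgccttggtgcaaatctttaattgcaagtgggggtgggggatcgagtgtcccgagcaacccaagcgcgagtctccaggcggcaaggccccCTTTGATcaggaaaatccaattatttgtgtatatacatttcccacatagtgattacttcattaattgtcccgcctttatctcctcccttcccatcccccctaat
Axin2: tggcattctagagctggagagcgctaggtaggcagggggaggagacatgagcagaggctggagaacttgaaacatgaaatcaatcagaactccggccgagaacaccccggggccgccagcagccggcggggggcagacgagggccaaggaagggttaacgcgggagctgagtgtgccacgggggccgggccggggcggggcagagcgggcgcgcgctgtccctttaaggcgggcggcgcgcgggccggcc
In the Dkk1 window, CTTTGAA and CTTTGTT lay on the strand of the gene, from 117 to 111 and from 98 to 92 bases before the RefSeq start, and the 30 bases around them (chr19:30549586-30549615, minus strand) are given next. GENCODE places the Dkk1 start 169 bases further upstream, so that these bases fall within the transcript it annotates.
Dkk1: agCTTTGAAatcccatcccggCTTTGTTgt
Of all 32851 promoter windows searched, 14.8% held at least 1 of the 4 sequences and 1.43% held at least 2. Among the genes studied here, 3 windows held a match, those of Sp5 and Dkk1 with 2 each and 1 of the 4 windows of Lef1 with 1. A match describes the letters in a window and not a site that was bound.

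Total counts lay between 20560564 and 23417917 per library, and 3 counts, taken as the detection limit, corresponded to 0.130 to 0.143 CPM (counts scaled to library size and composition). The labels do not say whether replicates were separate cultures, so the tests measure the spread between these libraries, which may be technical. The quasi-likelihood test of edgeR was run over all genes for each pair of states, and a gene was called higher or lower where its p, after Benjamini-Hochberg adjustment, was under 0.05 and its log2 fold change reached 1 in size. The library pEpiLC replicate 1 stood apart from its group. Against replicates 2 and 3 it had 323 and 333 genes that differed by more than 4-fold, while within-group pairs that did not include it had between 57 and 76. Pou5f1, which marks pluripotent cells, lay between 789 and 1139 CPM in all 9 libraries, while the 6 epiblast markers together summed to 4495 to 4790 CPM in EpiLC, 4121 to 4322 in aEpiLC and 1801 to 3063 in pEpiLC. Of these 6, Utf1, Pou3f1 and Dnmt3b were called lower in pEpiLC against EpiLC (log2 -2.60, -2.64 and -1.09) and Fgf5 higher (log2 1.00), and Dnmt3b was not called without pEpiLC replicate 1. The summed CPM of 6 primitive streak markers was 3.30 to 5.45 in EpiLC, 5.94 to 7.46 in aEpiLC and 492 to 2401 in pEpiLC, with the highest value in replicate 1. Summed levels of the 6 extraembryonic endoderm markers measured were 29.6 to 36.5 CPM in EpiLC, 7.23 to 8.74 in aEpiLC and 5.56 to 9.87 in pEpiLC, led in EpiLC by Rhox5. Of that list Afp and Ttr were not among the symbols of the count table. Apoa1 and Sox7 did not exceed 0.28 CPM in any library, and Apob had 1.79 to 7.01 CPM, the highest value in pEpiLC replicate 1. The 6 feeder fibroblast markers found in the count table, which lacked Postn and Lum, summed to 50.7 to 57.8 CPM in EpiLC and aEpiLC and to 54.1 to 81.1 in pEpiLC. Of the 5 tested, Col1a2 was called higher in pEpiLC than in EpiLC (log2 2.03, adjusted p = 0.00474) and Dcn lower (log2 -4.64, adjusted p = 8.1e-05), both also without pEpiLC replicate 1. Fbln1 had 29.6 to 61.3 CPM, the highest value in pEpiLC replicate 1, and Col3a1 did not exceed 0.56 CPM in any library. The 6 neural markers summed to 197 to 232 CPM in EpiLC, 486 to 564 in aEpiLC and 165 to 249 in pEpiLC. Of the 5 tested, Pax6 and Nes were called higher in aEpiLC than in EpiLC (log2 1.81 and 1.67), while Sox1, Sox2, Pax6 and Tubb3 were called lower in pEpiLC. Nes was higher than in EpiLC there too, below the fold limit (log2 0.92, adjusted p = 0.00255) and called without pEpiLC replicate 1 (log2 1.06). The 6 naive markers summed to 29.1 to 32.8 CPM in EpiLC, 15.4 to 15.7 in aEpiLC and 22.4 to 27.1 in pEpiLC, with Zfp42 and Esrrb called lower in aEpiLC (log2 -1.32 and -1.10). The part of any of these cells in the results was not tested. In bulk libraries a change in the number of cells that express a gene and a change in RNA per cell cannot be told apart.

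In pEpiLCs, 5 of the 10 genes rose relative to EpiLCs and 1 fell. Sp5, Axin2, Notum, Rnf43 and Nkd1 were called higher, beside 7.71% of the 15288 genes tested, and Tcf7l1 was called lower, beside 8.13%. Tcf7, Lef1 and Znrf3 were tested and not called, and Dkk1 did not pass the filter on low counts, which asks for enough counts in at least 3 libraries. In aEpiLCs, 2 of the 10, Axin2 and Rnf43, were called higher than in EpiLCs (7.25% of 15301 genes tested were). The count called lower was 0 of the 7 tested (5.24% of all genes tested were), with 2 lower at an unadjusted p under 0.05 and 0 by DESeq2. Between the later states, Sp5, Axin2, Notum and Nkd1 were called higher in pEpiLC (2.55% of 15198 genes tested) and Tcf7l1 lower (4.74%). The libraries did not overlap, pEpiLC above EpiLC, for 7 of the 9 genes tested and below it for 1, beside 28.2% and 30.5% of all genes tested. The same counts were 2 and 2 of 7 for aEpiLC against EpiLC (28.6% and 27.7%) and 6 and 1 of 9 for pEpiLC against aEpiLC (18.3% and 20.4%). By adjusted p with no limit on fold change the counts were the same, 7 and 1 (22.8% and 21.4% of all genes tested), 2 and 2 (24% and 22.6%) and 6 and 1 (6.28% and 9.3%). The median log2 fold change of the genes tested was 1.92 from EpiLC to pEpiLC, -0.11 from EpiLC to aEpiLC and 0.93 from aEpiLC to pEpiLC, and over all genes tested it was 0.02, 0.00 and 0.01. Sp5, Notum and Rnf43 passed the filter through the states in which they were higher, so these counts and medians are a description only. Over the 6, 6 and 7 genes with at least 10 counts in every library compared, it was 0.56, -0.12 and 0.58. The 3 comparisons share libraries and are not independent of each other. Without pEpiLC replicate 1 the counts were again 5 and 1 from EpiLC and 4 and 1 from aEpiLC.

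**Figure D1:**
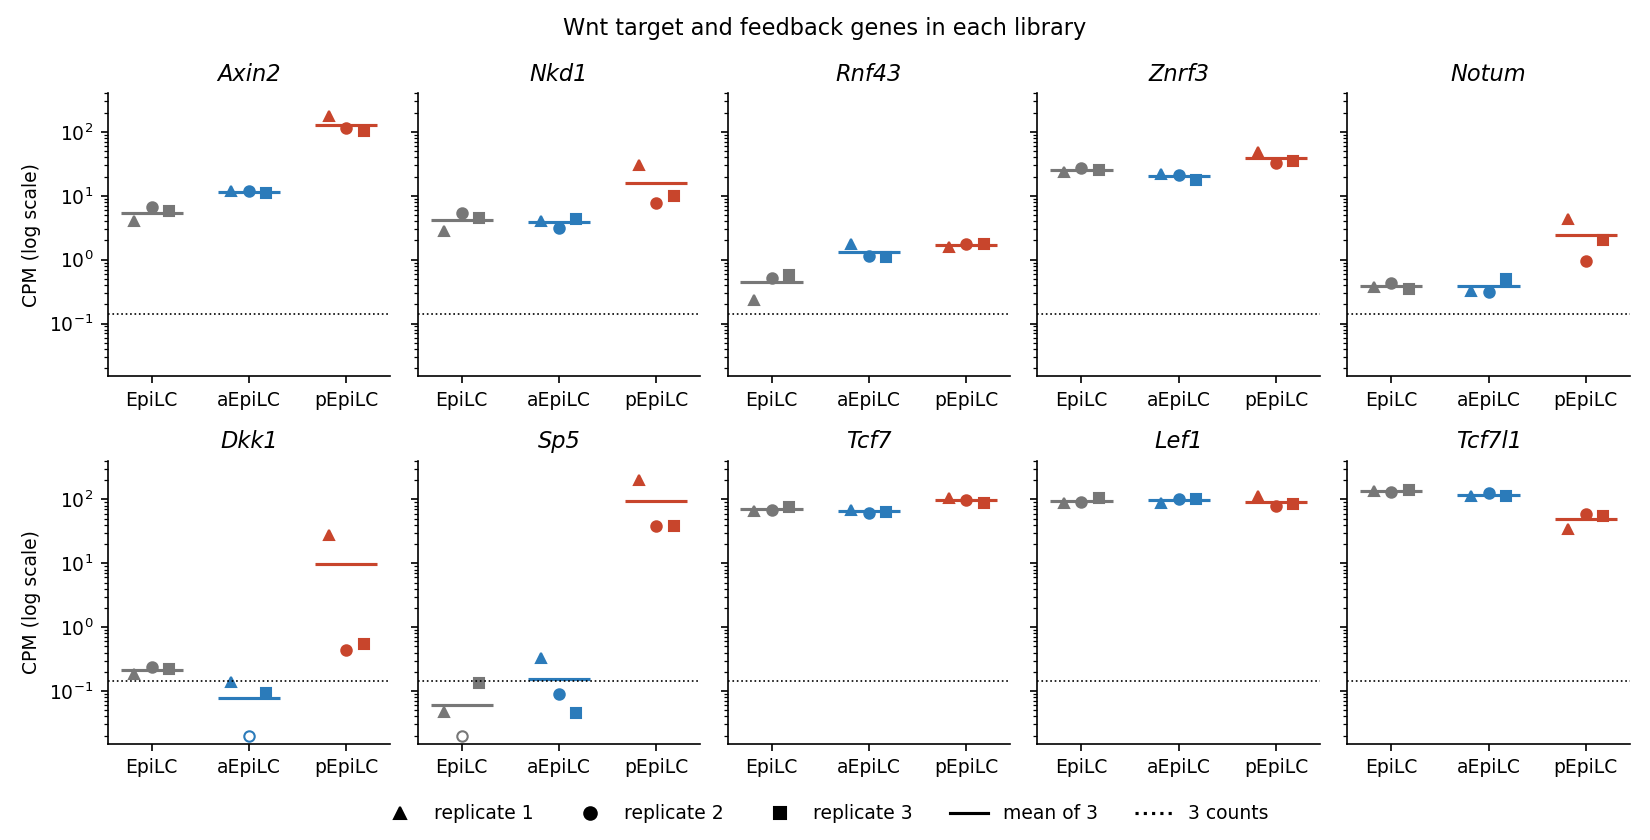
Level of each of the 10 genes in CPM (y axis, logarithmic) in the 3 libraries of each state, with the mean of 3 as a bar and the highest CPM of 3 counts as a dotted line. Open symbols are counts of 0, drawn at 0.02 CPM; the pEpiLC libraries of Axin2 lie above 100 CPM and those of Tcf7l1 below 60 CPM, each clear of the other states.

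Axin2 (ENSMUSG00000000142, GRCm38 chr11:108920349-108950783, plus strand) encodes a scaffold of the destruction complex and is among the most widely used readouts of the pathway. Its level was 3.96, 6.60 and 5.84 CPM in EpiLC replicates 1 to 3. It was 12.0, 12.0 and 10.9 CPM in the aEpiLC replicates and 176, 113 and 102 CPM in the pEpiLC replicates. The 3 states did not overlap, with EpiLC lowest and pEpiLC highest. The fitted log2 fold change from EpiLC to pEpiLC was 4.60 (SE 0.27, adjusted p = 5.3e-05), a 24.2-fold rise. From EpiLC to aEpiLC it was 1.09 (SE 0.17, adjusted p = 0.000142), a 2.13-fold rise. That rise was just over the fold limit, and without EpiLC replicate 1, the lowest library, it was 0.90 and no longer called (adjusted p = 0.000462, range over alternatives 3.78e-09 to 0.0053). From aEpiLC to pEpiLC the log2 fold change was 3.49 (SE 0.22, adjusted p = 0.00015). Axin2 was thus called in each of the 3 comparisons, a count that rests on the fold limit, since Tcf7l1 and Znrf3 also had an adjusted p under 0.05 in all 3. Of its exonic bases, 209 lie opposite the antisense gene Gm11670.

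Nkd1 (ENSMUSG00000031661, chr8:88521354-88594884, plus strand) encodes a protein that binds Dishevelled and restrains the signal upstream of the destruction complex. It had 2.80, 5.37 and 4.57 CPM in EpiLC and 4.08, 3.15 and 4.32 CPM in aEpiLC. The pEpiLC replicates had 30.1, 7.69 and 9.79 CPM. All pEpiLC libraries were above those of the other states, which overlapped each other, and replicate 1 was 3.44 times the mean of replicates 2 and 3. The log2 fold change was 1.92 from EpiLC to pEpiLC (SE 0.53, adjusted p = 0.022) and 2.04 from aEpiLC to pEpiLC (SE 0.51, adjusted p = 0.0344). These values were 1.06 and 1.19 when pEpiLC replicate 1 was left out, still called with adjusted p of 0.000856 and 0.000815. The calls were lost when any 1 EpiLC library was left out of the comparison with EpiLC (adjusted p from 0.0572 to 0.0833) and when any 1 aEpiLC library was left out of that with aEpiLC (0.109 to 0.134). Over all alternatives the adjusted p lay between 0.000856 and 0.0833 against EpiLC and between 5.31e-05 and 0.134 against aEpiLC. From EpiLC to aEpiLC the log2 fold change was -0.14 (95% CI -0.64 to 0.36, adjusted p = 0.65).

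Rnf43 and Znrf3 encode related membrane ubiquitin ligases that remove Frizzled receptors from the cell surface. Rnf43 (ENSMUSG00000034177, chr11:87662722-87735539, plus strand) was low in all libraries, with 0.233, 0.518 and 0.571 CPM in EpiLC, or 5, 11 and 13 counts. It had 1.78, 1.12 and 1.10 CPM in aEpiLC and 1.57, 1.78 and 1.75 CPM in pEpiLC. Rnf43 was therefore higher in both later states, which overlapped. The rise was 3.00-fold in aEpiLC (log2 1.58, SE 0.40, adjusted p = 0.00512) and 3.87-fold in pEpiLC (log2 1.95, SE 0.35, adjusted p = 0.00409). The difference between pEpiLC and aEpiLC was 0.35 on the log2 scale with a 95% CI of -0.31 to 1.00 (adjusted p = 0.449). Among the 5 genes that rose in pEpiLC, Rnf43 was the one that did not pass the test between pEpiLC and aEpiLC.

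Znrf3 (ENSMUSG00000041961, chr11:5276324-5444847, minus strand) had 23.6, 27.6 and 25.1 CPM in EpiLC and 21.8, 21.0 and 17.9 CPM in aEpiLC. Its pEpiLC levels were 48.1, 32.2 and 35.3 CPM. The states did not overlap, with aEpiLC lowest and pEpiLC highest. The log2 differences were 0.62 from EpiLC to pEpiLC (adjusted p = 0.0151), -0.33 from EpiLC to aEpiLC (adjusted p = 0.0173) and 0.93 from aEpiLC to pEpiLC (adjusted p = 0.0112), each below the fold limit and so not called. Without pEpiLC replicate 2 the last was 1.05 and was called (adjusted p = 0.0117, range over alternatives 4.9e-06 to 0.0536).

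Notum and Dkk1 encode secreted inhibitors. NOTUM removes the lipid that Wnt proteins need for receptor binding. Notum (ENSMUSG00000042988, chr11:120653788-120661175, minus strand) had 0.373, 0.424 and 0.352 CPM in EpiLC and 0.328, 0.315 and 0.506 CPM in aEpiLC. In pEpiLC it had 4.29, 0.956 and 2.07 CPM, or 90, 22 and 45 counts. The pEpiLC libraries were all above the rest, with replicate 1 highest and replicate 2 lowest. The log2 fold change was 2.67 from EpiLC (SE 0.58, adjusted p = 0.00838) and 2.65 from aEpiLC (SE 0.59, adjusted p = 0.0239). The values without pEpiLC replicate 1 were 1.99 and 1.97. The call against aEpiLC was lost when any 1 aEpiLC library was left out (adjusted p from 0.0755 to 0.102, range over alternatives 0.000299 to 0.102). Of its exonic bases 708 lie opposite Notumos, an antisense gene in the same table, and reads of the pair cannot be told apart without strand, which was not given in the sources used here.

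DKK1 binds LRP5 and LRP6 and keeps them from the receptor complex. Dkk1 (ENSMUSG00000024868, chr19:30545863-30549665, minus strand) had 4, 5 and 5 counts in EpiLC (0.187, 0.236 and 0.220 CPM) and 3, 0 and 2 counts in aEpiLC. In pEpiLC it had 584, 10 and 12 counts, or 27.8, 0.435 and 0.552 CPM. Replicate 1 was 56.5 times the mean of replicates 2 and 3, so that 1 library carried nearly the whole pEpiLC signal. Summed over libraries and scaled for their size, Dkk1 was 43.1 times as high in pEpiLC as in EpiLC, with an exact 95% counting interval of 25.5 to 79.2, and without replicate 1 the ratio was 2.30. The same ratio against aEpiLC was 120 (51.3 to 372), and 6.42 without replicate 1. These intervals cover counting error only and not the spread between libraries. Dkk1 did not pass the low-count filter in any of the 3 comparisons. With the filter left out, it was called against EpiLC (log2 5.47, adjusted p = 0.0327) and not against aEpiLC (log2 6.85, adjusted p = 0.0523). It also passed the filter when any 1 EpiLC or aEpiLC library was left out and was not called then (adjusted p from 0.121 to 0.122 against EpiLC and from 0.175 to 0.196 against aEpiLC). When pEpiLC replicate 2 was left out it was called against both (adjusted p = 0.0188 and 0.036).

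Sp5 (ENSMUSG00000075304, chr2:70474923-70477729, plus strand) encodes a zinc finger factor of the SP/KLF family, known as a direct target of beta-catenin that binds the promoters of other targets. It was close to absent in the states without CHIR99021, with 1, 0 and 3 counts in EpiLC and 7, 2 and 1 counts in aEpiLC. In pEpiLC it had 4296, 890 and 834 counts, or 205, 38.7 and 38.3 CPM. Each pEpiLC library was far above each library of the other states, and replicate 1 was 5.32 times the mean of the other pEpiLC libraries. Summed over libraries and scaled for their size, Sp5 was 1497 times as high in pEpiLC as in EpiLC, with an exact counting interval of 584 to 5497, and 630 times as high without replicate 1. Against aEpiLC the ratio was 598 (325 to 1247), and 251 without replicate 1. In the fitted model the log2 fold change was 10.48 from EpiLC (SE 1.26, adjusted p = 0.000817) and 9.21 from aEpiLC (SE 1.13, adjusted p = 0.00234), values that depend on the prior count of the fit. Between aEpiLC and EpiLC, with 10 counts against 4, the ratio was 2.50 with an interval of 0.722 to 10.9, and no difference could be detected at this depth. Its promoter held a pair of TCF/LEF sequences, as shown above, while that of Axin2 held none in the same window. A relation between such matches and the levels was not tested.

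**Figure D2:**
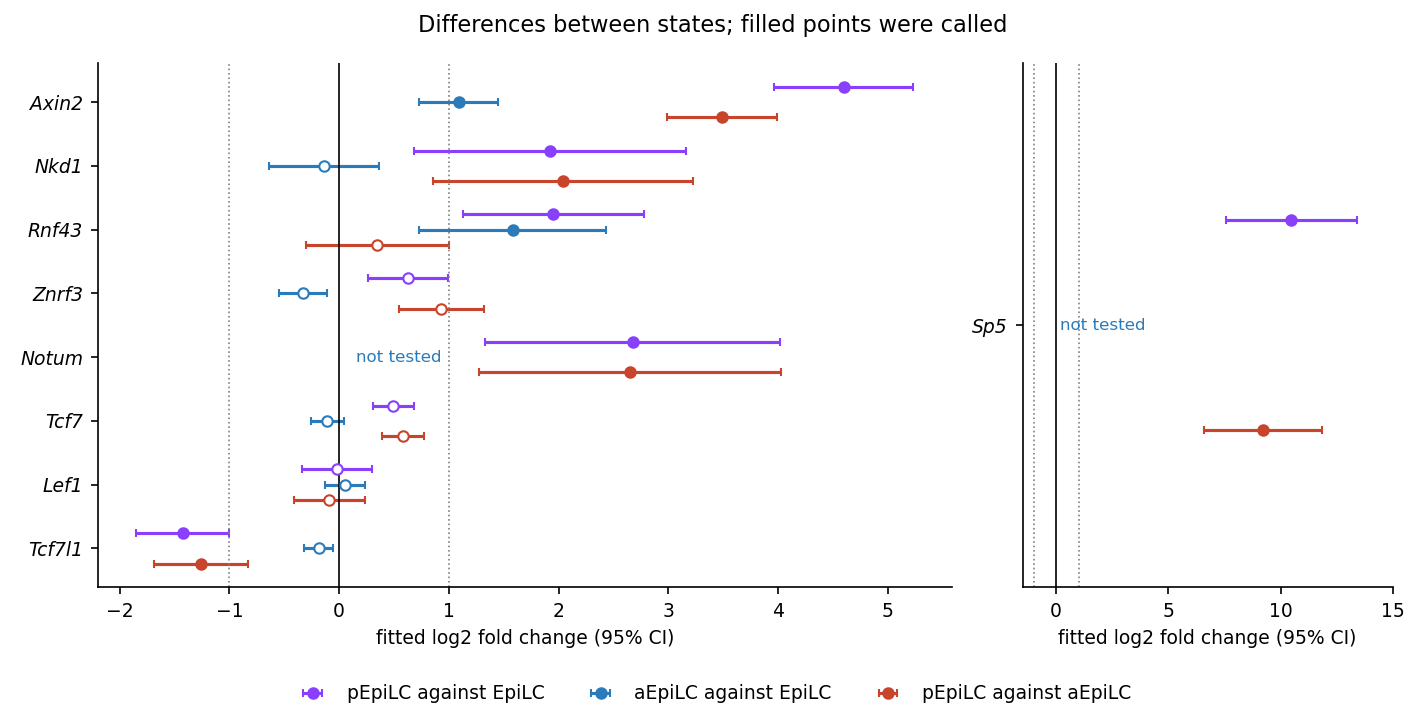
Fitted log2 fold change with its 95% CI (x axis) for each gene tested, in the 3 comparisons, with Sp5 on its own axis. Filled points were called and dotted lines mark the fold limit of 1; Axin2 is called in all 3, Tcf7l1 is called on the negative side in the comparisons with pEpiLC, and Lef1 lies near 0.

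TCF7, LEF1 and TCF7L1 belong to the family of factors through which beta-catenin acts, and TCF7L1 acts mainly as a repressor of target genes in pluripotent cells. Tcf7l1 (ENSMUSG00000055799, chr6:72626378-72789254, minus strand) had 134, 132 and 139 CPM in EpiLC and 115, 126 and 115 CPM in aEpiLC. Its level in pEpiLC was 34.1, 58.7 and 56.0 CPM. The pEpiLC libraries were below all others, and replicate 1 was the lowest at 0.594 times the mean of replicates 2 and 3. Tcf7l1 fell by 1.42 on the log2 scale from EpiLC to pEpiLC (SE 0.18, adjusted p = 0.00101), a 2.68-fold fall, and by 1.26 from aEpiLC (SE 0.19, adjusted p = 0.00524). When pEpiLC replicate 1 was left out it fell by 1.21 and by 1.04, and both calls held. Its exons share 179 bases with the antisense gene Gm15401. From EpiLC to aEpiLC its log2 difference was -0.19 (95% CI -0.32 to -0.06, adjusted p = 0.0222), which was below the fold limit.

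Tcf7 (ENSMUSG00000000782, chr11:52252371-52283014, minus strand) had 66.1, 69.2 and 74.8 CPM in EpiLC and 68.9, 62.4 and 63.5 CPM in aEpiLC. The pEpiLC level was 105, 96.6 and 89.4 CPM. The pEpiLC libraries were above all others, by 0.49 on the log2 scale over EpiLC (SE 0.08, adjusted p = 0.00281) and by 0.58 over aEpiLC (SE 0.08, adjusted p = 0.00461). Neither difference reached the fold limit. The difference from EpiLC to aEpiLC was -0.11 (95% CI -0.26 to 0.04, adjusted p = 0.221).

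Lef1 (ENSMUSG00000027985, chr3:131110471-131224356, plus strand), often listed as a target of the pathway, did not pass the test in any comparison. It had 86.5, 92.2 and 105 CPM in EpiLC and 87.6, 103 and 103 CPM in aEpiLC. In pEpiLC it had 112, 79.5 and 83.8 CPM, a range that covered those of the other states. The log2 difference was -0.02 from EpiLC to pEpiLC (95% CI -0.34 to 0.30, adjusted p = 0.926), 0.05 from EpiLC to aEpiLC (95% CI -0.13 to 0.23, adjusted p = 0.637) and -0.09 from aEpiLC to pEpiLC (95% CI -0.41 to 0.23, adjusted p = 0.706). Of its exonic bases 1208 lie opposite the antisense gene Gm43352, with which its reads could be shared.

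The makeup of the TCF/LEF transcripts was compared per length, as counts per exonic kb of Tcf7, Lef1, Tcf7l1 and Tcf7l2, each as a share of the sum in a library. In EpiLC, Tcf7l1 made up 49.0%, 47.3% and 46.2% of the sum. In aEpiLC it made up 44.2%, 46.9% and 44.3%, and in pEpiLC 13.9%, 24.3% and 24.4%. The share was lower in each pEpiLC library than in any library of the other states, and lowest in replicate 1. The mean share of Tcf7l1 was 47.5% ± 1.40 (SD, n = 3) in EpiLC, 45.1% ± 1.54 in aEpiLC and 20.8% ± 6.03 in pEpiLC, a difference of -26.6 percentage points from EpiLC and -24.3 from aEpiLC (exact permutation p = 0.1 for each, two-sided, the smallest that 3 against 3 allows). The differences without pEpiLC replicate 1 were -23.1 and -20.8 percentage points. The share of Tcf7 was 36.7% ± 0.65 in EpiLC, 37.0% ± 2.53 in aEpiLC and 60.7% ± 3.13 in pEpiLC (exact permutation p = 0.1 for pEpiLC against each of the others). Shares are parts of a sum, so those of Tcf7 and Tcf7l1 are not independent of each other. Lef1 took 14.8% ± 0.76, 16.6% ± 1.37 and 17.1% ± 2.96, which overlapped, and the Tcf7l2 share did not exceed 1.53% in any library. The summed level of the 4 was 72.6 ± 3.42 CPM per exonic kb in EpiLC, 66.9 ± 1.33 in aEpiLC and 60.9 ± 2.09 in pEpiLC. Scaled to coding length instead, the differences in the Tcf7l1 share were -19.0 and -16.5 percentage points, smaller and in the same direction. The order of the factors within a state depended on the length: by coding length Tcf7l1 had the largest share only in EpiLC replicate 1. Its mean share by that length was 29.5% in aEpiLC and 13.0% in pEpiLC, where Lef1 took 36.7% and 35.6%.

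**Figure D3:**
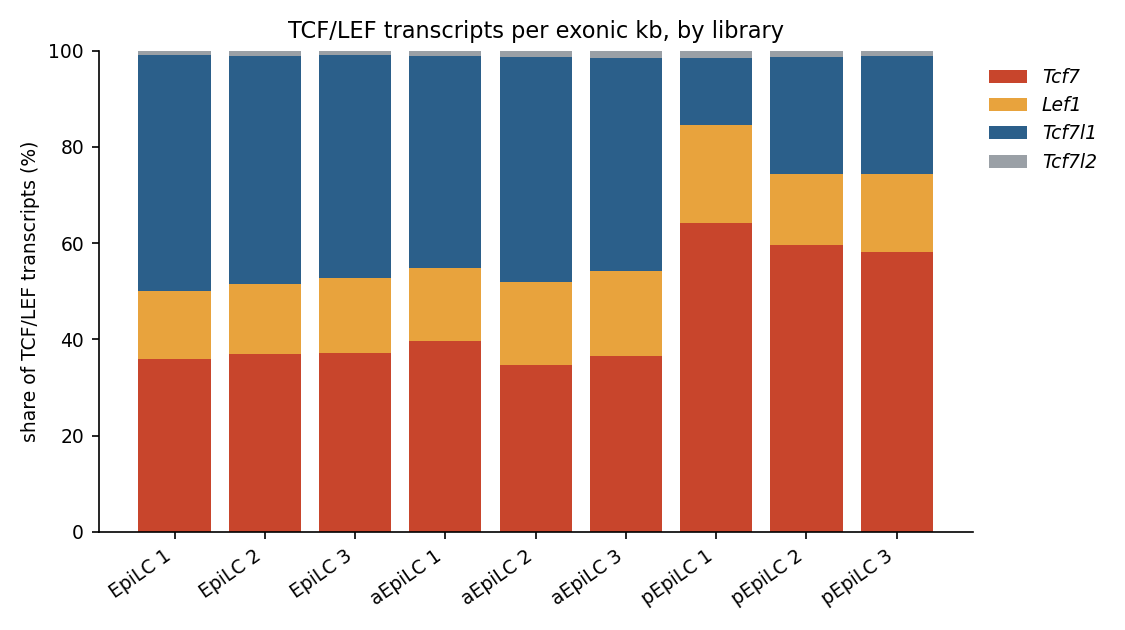
Share of Tcf7, Lef1, Tcf7l1 and Tcf7l2 in their summed transcripts per exonic kb (y axis, percent) in each of the 9 libraries (x axis). Tcf7l1 takes 44.2% to 49.0% in the EpiLC and aEpiLC libraries and 13.9% to 24.4% in the pEpiLC libraries, where Tcf7 takes 58.2% to 64.2%.

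The pEpiLC libraries differed among themselves in several of these genes, with replicate 1 apart from the others. Replicate 1 was the highest pEpiLC library for 8 of the 10 genes, as for 42.2% of the 13455 genes with a mean of at least 1 CPM in pEpiLC. It was at least 1.5 times the mean of replicates 2 and 3 for 5 of the 10, and for 9.37% of those genes. The ratio ran from 56.5 for Dkk1, 5.32 for Sp5, 3.44 for Nkd1 and 2.84 for Notum to 1.64 for Axin2 and 1.43 for Znrf3. It was 1.37 for Lef1, 1.13 for Tcf7 and 0.892 for Rnf43, and Tcf7l1 was at 0.594. The streak markers Eomes, T and Mixl1 had ratios of 1.67, 5.13 and 17.6 in the same library. Of the neural markers, Sox2, Tubb3 and Nes had ratios of 0.394, 0.397 and 0.735, and Pax6, near the detection limit, one of 1.08. The part of streak cells in the ratios of the Wnt genes was not tested.

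**Figure D4:**
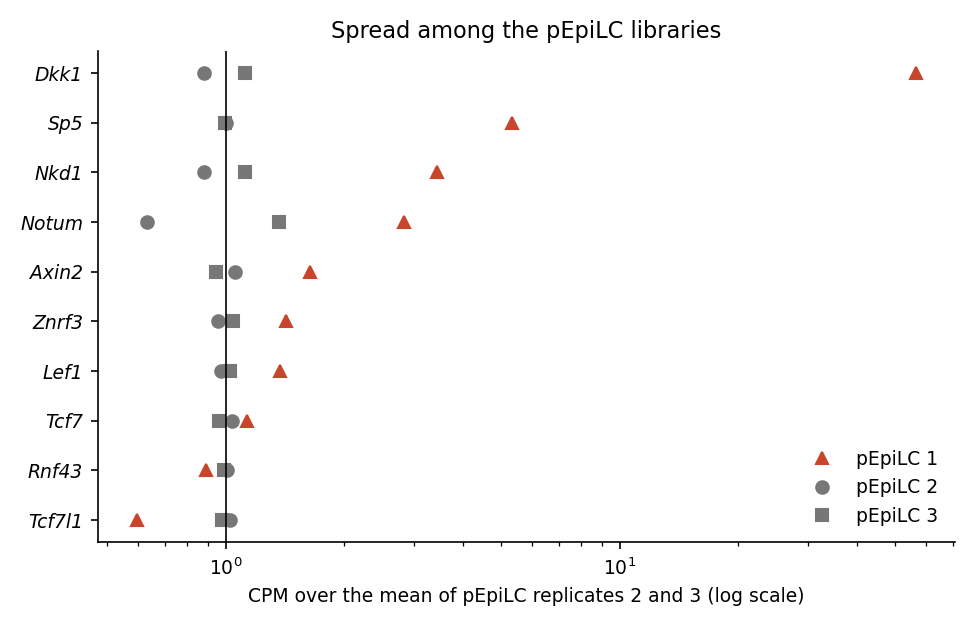
CPM of each pEpiLC library over the mean of pEpiLC replicates 2 and 3 (x axis, logarithmic) for the 10 genes. Replicate 1 lies 56.5 times above that mean for Dkk1 and 5.32 times for Sp5, close to it for Rnf43 at 0.892 and below it for Tcf7l1 at 0.594.

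Other components of the pathway, 32 genes of Wnt secretion, R-spondins, co-receptors, the destruction complex and nuclear partners, were counted in the same way. From EpiLC to pEpiLC 5 of the 31 tested rose and 1 fell, beside 7.71% and 8.13% of all genes tested, with a median log2 fold change of 0.18 beside 0.02 over all genes tested. Here and in the lists that follow, counts and medians are a description only. Genes low in EpiLC could pass the filter through a later state in which they were high, as Porcn, Rspo3, Rspo4 and Pygo1 did. Rspo3 and Pygo1 passed in that way against aEpiLC as well. Genes low in a later state could likewise pass the filter through the state in which they were higher. Wls and Porcn, both needed to lipidate and secrete Wnt proteins, rose. Wls had 10.3 ± 0.92 CPM (SD, n = 3) in EpiLC and 47.9 ± 6.21 in pEpiLC (log2 2.24, adjusted p = 4.19e-05), and Porcn 0.641 ± 0.37 and 5.06 ± 0.44 (log2 2.99, adjusted p = 0.00117). The R-spondin Rspo3, a secreted agonist that protects Frizzled from RNF43 and ZNRF3, had 0.047, 0.141 and 0 CPM in EpiLC and 18.7, 4.61 and 3.91 CPM in pEpiLC (log2 7.10, adjusted p = 0.0016, and log2 6.02 without pEpiLC replicate 1). Rspo4 and Pygo1 rose as well, Rspo4 at low level (0.99 CPM in pEpiLC). Tle4, which encodes a corepressor that binds TCF/LEF factors, fell by 1.48 on the log2 scale (adjusted p = 0.000163), from 132 ± 20.8 to 46.6 ± 3.10 CPM. Ctnnb1, which encodes beta-catenin itself, had 663 CPM in EpiLC, 963 in aEpiLC and 895 in pEpiLC, with log2 differences from EpiLC of 0.54 (adjusted p = 2.72e-06) and 0.46 (adjusted p = 0.00042), both below the fold limit. Without pEpiLC replicate 1, 4 of the list rose and 2 fell, with Rspo4 no longer called and Tle2, another corepressor gene, called lower.

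From EpiLC to aEpiLC, 3 of the 29 tested in that list rose and 2 fell, close to the 7.25% and 5.24% of all genes tested. Between the later states 3 of 30 were higher in pEpiLC and 2 lower, beside 2.55% and 4.74% of all genes tested. Wls rose in aEpiLC too, to 30.1 CPM (log2 1.55, adjusted p = 9e-08). Lgr4, a receptor for R-spondins, fell by 1.61 on the log2 scale in aEpiLC (adjusted p = 1.4e-08), with 169, 187 and 163 CPM in EpiLC and 64.7, 53.4 and 51.7 CPM in aEpiLC. Its pEpiLC libraries lay between, at 104, 116 and 108 CPM. Lgr6 and Apc2 were called higher in aEpiLC and Tle2 lower, and Apc2 was lower in pEpiLC than in aEpiLC (log2 -1.98, adjusted p = 0.000974).

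Of 19 other inhibitors, 14 were tested from EpiLC to pEpiLC, and 3 rose and 3 fell, beside 7.71% and 8.13% of all genes tested. Their median log2 fold change was 0.39 beside 0.02. Frzb and Trabd2b passed the filter through pEpiLC, and 5 of the list were not tested. Frzb, which encodes a secreted Wnt-binding protein, had 0.093, 0.141 and 0.176 CPM in EpiLC and 56.2, 3.48 and 2.62 CPM in pEpiLC (log2 7.20, adjusted p = 0.0104). As for Dkk1, pEpiLC replicate 1 carried most of that level, and the log2 fold change was 4.44 without it. Apcdd1, a membrane inhibitor, had 4.63 CPM in EpiLC and 11.8 CPM in pEpiLC (log2 1.37, adjusted p = 0.0109), and Trabd2b, which encodes a protease that cleaves Wnt proteins, 0.291 and 1.22 CPM (log2 2.07, adjusted p = 0.00234). Apcdd1 was not called against EpiLC without pEpiLC replicate 1 (log2 0.91), so that 2 of the list rose and 3 fell. Sfrp4, Sfrp5 and Wif1, which encode secreted Wnt-binding proteins, fell. Sfrp5 and Wif1 were low, with means of 1.51 and 0.731 CPM in EpiLC and 0.414 and 0.227 CPM in pEpiLC. Both passed the filter through EpiLC, where they were higher. In aEpiLC, 2 of 14 inhibitors rose, Frzb and Trabd2b, and Sfrp5 fell (7.25% and 5.24% of all genes tested did). Between the later states 3 of 14 were higher in pEpiLC, Frzb, Apcdd1 and Dact1, and Sfrp1 and Sfrp4 were lower, beside 2.55% and 4.74% of all genes. With pEpiLC replicate 1 left out, Dact1 (log2 0.75) and Sfrp4 (log2 -0.97) were not called against aEpiLC and Sostdc1 was called lower (log2 -2.77, adjusted p = 0.0192). Sostdc1 had 13, 8 and 11 counts in aEpiLC and 1 and 2 in pEpiLC replicates 2 and 3, which is below the detection limit. The library left out had 36 counts, the highest of all libraries.

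Of 13 other genes known to respond to the pathway, 11 were tested from EpiLC to pEpiLC and 7 rose, beside 7.71% of all genes tested. Their median log2 fold change was 2.88, and 1.78 without pEpiLC replicate 1, beside 0.02 and 0.01 over all genes tested. T, Cdx1, Cdx2 and Lgr5 passed the filter through pEpiLC, where they were high. In aEpiLC 3 of 9 tested rose and 1 fell (7.25% and 5.24% of all genes), and 5 of 11 were higher in pEpiLC than in aEpiLC (2.55% of all genes). T, the streak transcription factor, had 0.466, 0 and 0.439 CPM in EpiLC and 1087, 204 and 219 CPM in pEpiLC. Sp8, a relative of Sp5, had 1.10 CPM in EpiLC, 4.71 in aEpiLC and 43.4 in pEpiLC, and the receptor gene Tnfrsf19 had 4.52, 19.5 and 76.0 CPM. Both rose in aEpiLC (log2 2.09 and 2.11, adjusted p = 0.000395 and 3.12e-07) and again from aEpiLC to pEpiLC (3.21 and 1.96, adjusted p = 0.0019 and 0.000334), as Axin2 did. Lgr5 rose in both later states, to 1.09 and 2.00 CPM from 0.517. Cdx1, Cdx2 and Msx1, which mark posterior or mesodermal cells, rose in pEpiLC with replicate 1 far above the others, at 16.8 against 0.739 and 0.735 CPM for Cdx1 and at 22.1 against 2.09 and 2.21 CPM for Msx1. Myc, often named as a target, was not called in pEpiLC and fell by 1.10 on the log2 scale in aEpiLC (adjusted p = 1.23e-06). Without pEpiLC replicate 1, 6 rose, 1 fell and Msx1 was not called. The gene that fell was the Notch ligand gene Dll1 (log2 -2.83, adjusted p = 8.25e-09). Against aEpiLC, 6 were then higher, now with Msx1 (log2 1.57, adjusted p = 0.00985, and 0.0527 with all libraries). Dll1 was lower there too (log2 -2.58, adjusted p = 1.43e-05). These falls rest on the library left out, which was the highest of all for Dll1 (22.4 CPM, beside 2.09 and 2.44 in the remaining pEpiLC libraries). With all libraries Dll1 was not called against EpiLC (log2 -0.85, adjusted p = 0.421) or aEpiLC (log2 -0.60, adjusted p = 0.665).

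**Figure D5:**
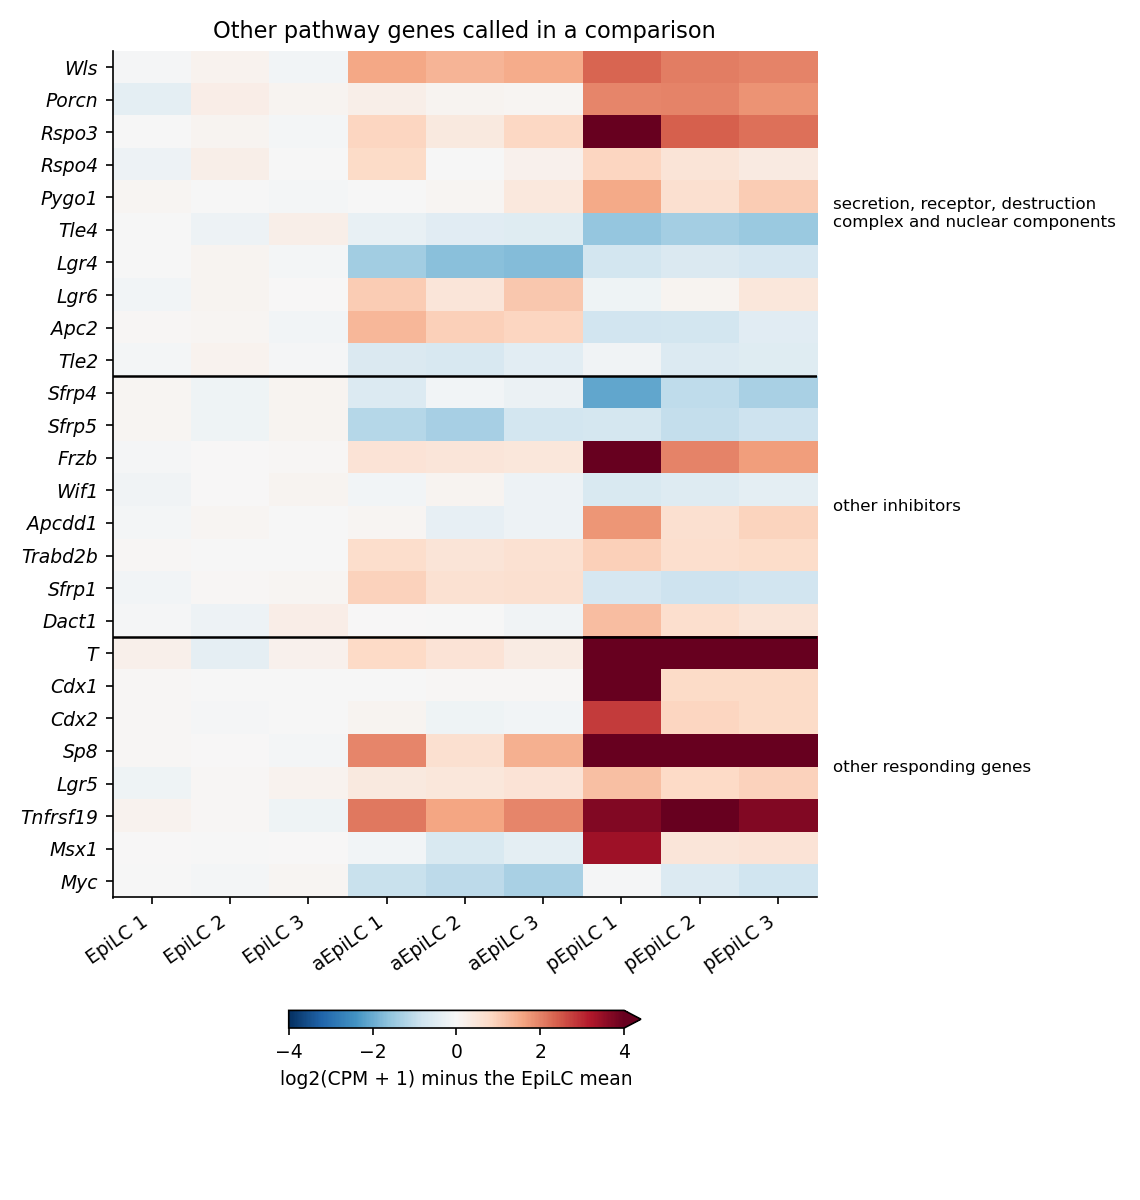
Level of the 26 other pathway genes called in at least 1 comparison, as log2(CPM + 1) minus its EpiLC mean (colour, which stops at 4), in each of the 9 libraries (columns), grouped by role. T, Sp8 and Tnfrsf19 are high in all pEpiLC libraries, while Frzb, Cdx1 and Msx1 are highest in pEpiLC replicate 1.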

How the data were processed

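Bulk RNA-seq of mouse EpiLC, aEpiLC and pEpiLC (9 libraries) was sequenced as paired-end reads, mapped to GRCm38 with STAR 2.7.9a and counted with RSEM 1.3.1. The deposited values are the expected counts (estimated counts, which need not be whole) per gene symbol, without normalization, and were rounded to whole numbers. The gene annotation and strandedness are not given in the sources used here. Gene positions, exonic and coding lengths came from GENCODE vM21, and promoters from RefSeq.

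For each comparison, the 6 libraries concerned were fitted on their own in R 4.3.3 with edgeR 4.0.16, using TMM factors, filterByExpr and the quasi-likelihood test, with p-values adjusted over all genes tested. The F statistic and the fold change gave the standard errors and intervals. CPM values used TMM over the 9 libraries. Shares of TCF/LEF transcripts were compared with an exact permutation test (scipy). The fits were run on simulated data with the same dispersion for all genes and no library apart from its group. That setting does not cover the spread seen in pEpiLC. Columns of all 9 libraries were mapped to samples by name.

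The 10 genes, the 3 lists of other pathway genes and the marker lists were chosen with earlier results of these data known. All 10 genes are named, other pathway genes only if called in at least 1 comparison (Ctnnb1, Dll1 and Sostdc1 were named after their values were seen), and the 5 genes most like Axin2 and Tcf7l1 by a fixed rule of correlation. Alternatives were RLE factors, DESeq2 1.42.0, edgeR's likelihood ratio test, other filters, 1 fit of all libraries, the replicate number as a block, no fold limit and leaving out each library. Counts of the pathway lists without pEpiLC replicate 1 were added after seeing the data. Counting intervals and the detection limit cover counting error only.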

Additional observations from a re-analysis of the deposited data

How the results depend on the processing

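Precision was limited by 3 libraries per state, by the spread between pEpiLC replicate 1 and the others, and for Rnf43, Notum, Dkk1 and Sp5 by counts near the detection limit in at least 1 state. Asking for 10 or more counts in each of the libraries compared, which leaves fewer genes tested, gave 2 genes called higher in pEpiLC against EpiLC, 1 in aEpiLC against EpiLC and 2 in pEpiLC against aEpiLC. With no fold limit 2 genes, Tcf7l1 and Znrf3, were called lower in aEpiLC against EpiLC. Leaving out each library in turn, the counts called higher ranged from 4 to 6 in pEpiLC against EpiLC, from 1 to 2 in aEpiLC against EpiLC and from 2 to 6 in pEpiLC against aEpiLC. Of these, 1 was without EpiLC replicate 1, 2 was without any 1 aEpiLC library and 6 was without pEpiLC replicate 2. In that last setting Dkk1 passed the filter and was called, and against aEpiLC Znrf3 was called as well. Whether the replicate numbers pair the libraries could not be settled with 3 libraries per state. The correlations of same-numbered deviations between aEpiLC and pEpiLC were 0.17, 0.12 and 0.06, and those of differently numbered libraries ran from -0.14 to 0.058. Each aEpiLC library correlated best with the pEpiLC library of its number. Correlations of same-numbered deviations with EpiLC ran from -0.06 to 0.03. With the replicate number as a block, 4 genes were called higher and 1 lower in pEpiLC against EpiLC (Nkd1 at 1.66, adjusted p = 0.0586), 2 and 0 in aEpiLC against EpiLC, and 4 and 1 in pEpiLC against aEpiLC. Fold changes that turned in sign were near 0 and not called. Leaving out each library in turn, that of Lef1 ranged from -0.19 to 0.075 in pEpiLC against EpiLC, from -0.0088 to 0.13 in aEpiLC against EpiLC and from -0.26 to 0.0079 in pEpiLC against aEpiLC, and that of Nkd1 from -0.37 to 0.058 in aEpiLC against EpiLC. The difference in Tcf7l1 share was -19.0 (pEpiLC and EpiLC) and -16.5 percentage points (pEpiLC and aEpiLC) with coding length. The cause of these shifts was not tested. Of the fitted fold changes, 168 of 169 values under the settings that kept all libraries and 133 of 150 without 1 library had the direction and the call reported.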

Other observations

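Among the 10727 genes with a mean of at least 5 CPM that passed the filter over 9 libraries, the pattern most like that of Axin2, by Pearson correlation of log2 CPM over the 9 libraries, was that of Xxylt1 (r = 0.995), followed by Ccnd2 (0.994), Tgfbr3 (0.994), Pde10a (0.991) and Rtl8b (0.989). Ccnd2, which encodes cyclin D2, had means of 4.09 ± 0.36, 6.56 ± 0.61 and 29.8 ± 4.93 CPM (SD, n = 3) in EpiLC, aEpiLC and pEpiLC. Tgfbr3, which encodes the TGF-beta co-receptor betaglycan, had 2.56 ± 0.38, 7.19 ± 1.07 and 147 ± 17.1 CPM. In pEpiLC replicates 1 to 3 Tgfbr3 had 167, 135 and 139 CPM, so that it was high in each of the pEpiLC libraries. Xxylt1 followed the same order over a smaller range, with 23.5, 25.6 and 34.6 CPM.

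The genes most like Tcf7l1 were Rasgrp2 (r = 0.998), Adap1 (0.994), Zfp219 (0.993), Rps6ka4 (0.993) and Myo1c (0.992). Rasgrp2, which encodes an exchange factor for small GTPases, had 80.0 ± 7.0, 52.1 ± 5.56 and 7.85 ± 4.48 CPM in EpiLC, aEpiLC and pEpiLC, and 2.76, 11.2 and 9.56 CPM in pEpiLC replicates 1 to 3. As for Tcf7l1, replicate 1 was the lowest pEpiLC library. These are descriptions over 9 libraries that share 3 states, and genes are not independent replicates.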
